A study of Mus musculus with 8 samples.

Results

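The nuclear genes for the 5 complexes of oxidative phosphorylation were followed in mouse embryonic fibroblasts, the mesenchymal cells obtained when a dissociated embryo is put into culture. A gene was a member if every transcript cluster used for it (a set of array probes that is summarised as a unit) carried that gene's symbol alone and the symbol began with Nduf, with Sdh and a letter from a to d, with Uqcr, with Cox and a digit from 4 to 8, or with Atp5. This gave 92 of 17501 genes, measured by 118 clusters, and where a gene had several clusters their mean was taken. By prefix there were 43 genes of complex I, 8 of complex II, 8 of complex III, 16 of complex IV and 17 of complex V. The prefixes also take in 11 assembly factors, whose products help to build a complex without staying in it, and 7 paralogs known mainly from muscle, testis or low oxygen. RefSeq lists 100 protein-coding genes that meet the rule, and those without a cluster of their own were not analysed here as members.

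RNA was hybridised to 8 Affymetrix arrays, 1 for each combination of genotype, background and passage class, so that 4 arrays stood at each level of each factor. The cells were wild-type or Smurf2-/-, lacking a ubiquitin ligase of the HECT class. Those of the C57B6 background were taken at passage 7 (early) and passage 28 (late) and came from 1 embryo per genotype, while those of the mixed 129SVJ and NIH Black Swiss background, called mixed BL here, were taken at passages 6 and 33 and pooled 3 embryos for Smurf2-/- and 2 for wild-type. The labels give 2 different embryonic days, a later day in the sample descriptions and an earlier day in the growth protocol. Both are the same for every array, so the labelled age does not differ between the groups, and which day holds could not be settled. Since nothing says that the early and late arrays of a genotype and background were separate cultures, and no technical replicates were made, the p-values rest on array-to-array spread alone, which may be technical.

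Each value is a log2 difference from the median of that transcript cluster over the 8 arrays, and the fold changes follow from it. Such centred values carry no level that could be set against another gene's. The numerical step left in the values gave a coarse class, log2 8 or above on every array, which held 3808 of the 17501 genes (21.8%) and 50 of the 92 members (54.3%). A gene was counted in it only if every cluster of that gene passed. Values deposited with few digits, such as -0.000716 for Atp5b, can miss the step, so the class may leave out bright genes. All 6 core subunits of complex I that were measured, 13 of the 17 complex V genes and none of the 7 restricted paralogs were in that class. Of 8 fibroblast markers, Col1a1, Col1a2, Fn1, Pdgfrb, Thy1 and Vim were in it, against 0 of 31 markers of 7 other cell types. Smurf2 itself differed by -1.57 ± 0.12 (SE) between Smurf2-/- and wild-type, with a limma adjusted p of 0.0484 and a lower value in each of the 4 Smurf2-/- arrays than in its partner. Whole arrays were close in their medians, which ran from -0.015 to 0.046 over all genes.

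Oxidative phosphorylation passes electrons from NADH through complex I, or from succinate through complex II, to ubiquinone, then through complex III and cytochrome c to complex IV, where oxygen is reduced. Complexes I, III and IV pump protons across the inner mitochondrial membrane, and complex V, the ATP synthase, lets them return through its rotating c-ring to make ATP. Most subunits are encoded in the nucleus and imported, and many of their promoters carry sites for the transcription factors NRF1 and GABPA. The subunits encoded in mitochondrial DNA have other symbols and are not among the members.

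The promoter sequences of 4 members that stand at the ends of the comparisons described next are given here, as the 250 bases that precede the RefSeq transcript start (assembly GRCm38.p6, all 4 on the minus strand, written 5′ to 3′ in the direction of the gene). Capitals mark the palindromic motif that NRF1 is known to bind, the longer runs, with 1 base near its centre left free, or CCGGAAG, the core of the GABPA site, each read on either strand. Cox6a1 (chr5:115348959-115349208) and Ndufs5 (chr4:123718187-123718436) had the largest background differences, one in each direction, and Atp5g2 (chr15:102671048-102671297) and Atp5j2 (chr5:145191542-145191791) did not overlap between early and late arrays.
Cox6a1: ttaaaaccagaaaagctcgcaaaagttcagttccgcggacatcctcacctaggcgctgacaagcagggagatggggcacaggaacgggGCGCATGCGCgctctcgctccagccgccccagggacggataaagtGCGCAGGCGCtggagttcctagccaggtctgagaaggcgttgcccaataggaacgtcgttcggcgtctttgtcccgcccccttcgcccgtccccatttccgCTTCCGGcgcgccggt
Ndufs5: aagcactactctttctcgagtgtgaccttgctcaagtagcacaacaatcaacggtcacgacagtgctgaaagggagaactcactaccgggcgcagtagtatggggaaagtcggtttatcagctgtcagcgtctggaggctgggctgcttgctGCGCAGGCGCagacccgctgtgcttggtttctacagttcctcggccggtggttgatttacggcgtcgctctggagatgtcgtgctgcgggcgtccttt
Atp5g2: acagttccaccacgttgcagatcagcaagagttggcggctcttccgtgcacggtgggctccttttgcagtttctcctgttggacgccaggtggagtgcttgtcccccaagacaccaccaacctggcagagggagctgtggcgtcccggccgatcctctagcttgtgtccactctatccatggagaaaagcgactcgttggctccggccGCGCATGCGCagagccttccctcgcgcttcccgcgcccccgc
Atp5j2: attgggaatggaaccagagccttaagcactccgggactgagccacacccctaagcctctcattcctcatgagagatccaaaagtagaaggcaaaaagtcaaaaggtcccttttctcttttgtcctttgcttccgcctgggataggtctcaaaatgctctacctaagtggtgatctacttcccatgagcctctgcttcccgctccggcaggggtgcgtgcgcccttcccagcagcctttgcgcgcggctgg
Cox6a1 holds the NRF1 letters at 2 places and the GABPA letters nearer the start, Ndufs5 and Atp5g2 hold the NRF1 letters at 1 place each, and Atp5j2 holds neither. In Atp5g2 the match lies 42 to 33 bases before the start. The sequences are those of the reference assembly and were not determined in the cells of either background.

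The RefSeq promoter table, whose windows of 300 bases end 50 bases after the start, held 76 of the 92 members and 13736 of the genes on the array. The NRF1 motif was found in 20 of the 76 member promoters (26.3%) and in 8.77% of the promoters of array genes. Its stricter form, the run that Atp5g2 holds, was found in 7 of 76 (9.21%) against 1.79%. CCGGAAG was found in 21 of 76 (27.6%) against 15.2%, while the longer CCGGAAGT, which overlaps it, was found in 5 of 76 (6.58%) against 6.65%. The 20 members with the NRF1 letters and the 56 without had median differences of 0.07 in both groups for genotype (18 and 38 positive), 0.07 and 0.04 for passage (15 and 36) and 0.11 and 0.14 for background (15 and 47). For CCGGAAG the 21 members with and the 55 without it had medians of 0.03 and 0.07 for genotype (12 and 44 positive), 0.03 and 0.04 for passage (11 and 40) and 0.15 and 0.14 for background (17 and 45). These splits were not tested.

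The comparison of the 2 backgrounds held the widest member differences. Among the 92 members, 74 had a positive mixed BL minus C57B6 difference, against 51.7% of all genes, and the median member stood 0.13 higher in mixed BL, against 0.0046 for all genes. In limma, with p-values adjusted over all 17501 genes at a threshold of 0.05, no member was called, where 0.0800% of all genes (14) were. At an unadjusted p under 0.05 there were 24 members, 21 with a positive and 3 with a negative difference, beside 13.5% of all genes (6.85% positive and 6.62% negative). In 4 of 4 matched pairs 24 members were higher in mixed BL, where 10.4% of all genes were, and 3 were lower, where 9.94% were. For 13 members the C57B6 and mixed BL arrays did not overlap, 11 of them higher in mixed BL, where 3.02% of all genes behaved so, and 2 lower, where 2.89% did.

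Cox6a1, the broadly expressed form of subunit 6A of cytochrome c oxidase (complex IV), had the smallest background p of the members. In C57B6 it stood at -0.70 and -0.71 in wild-type at early and late passage and at -0.21 and -0.55 in Smurf2-/-. In mixed BL it stood at 0.44 and 0.21 in wild-type and at 0.39 and 0.42 in Smurf2-/-. All 4 mixed BL arrays lay above all 4 C57B6 arrays. The means were 0.37 ± 0.10 and -0.54 ± 0.23 (SD, n = 4 each), a difference of 0.91 ± 0.09 (SE), or 1.88-fold, with a limma adjusted p of 0.0562. It was called with every cluster tested on its own and with a trend in the fit, where its adjusted p was 0.0389.

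Ndufs5, an accessory subunit of complex I, ran the other way and had the widest spread of any member (SD 0.72 over the 8 arrays, against a median of 0.19 over members and 0.18 over all genes). In C57B6 it stood at 0.79 and 0.51 in wild-type at early and late passage and at 0.44 and 0.49 in Smurf2-/-. In mixed BL it stood at -0.89 and -0.85 in wild-type and at -0.81 and -0.44 in Smurf2-/-. The backgrounds did not overlap. The difference was -1.31 ± 0.14 (SE), or 2.47-fold, with a limma adjusted p of 0.0593. It was called in the same 2 settings and also with no replicate block, where its adjusted p was 0.0396. A further cluster, which names both Ndufs5 and its pseudogene Ndufs5-ps and so is no member, had a difference of 0.15, of the opposite sign. The single cluster behind Ndufs5 was below the coarse brightness class.

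**Figure D1:**
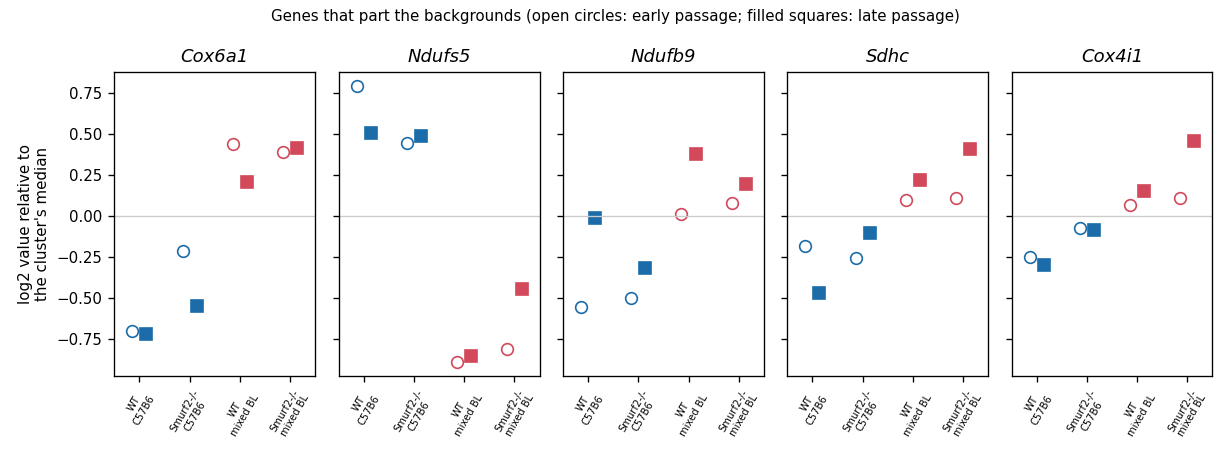
Log2 value relative to the cluster's median over the 8 arrays (vertical axis) of Cox6a1, Ndufs5, Ndufb9, Sdhc and Cox4i1, a panel each, by genotype and background (horizontal axis), with 1 symbol per array: blue for C57B6, red for mixed BL, open circles for early and filled squares for late passage. Cox6a1, Ndufb9, Sdhc and Cox4i1 lie higher in all 4 mixed BL arrays than in any C57B6 array, and Ndufs5 lies lower in all of them.

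Within complex I the remaining non-overlapping members were accessory and core subunits. Ndufb9, an accessory subunit of the membrane arm, stood between -0.55 and -0.012 in C57B6 and between 0.012 and 0.38 in mixed BL, a difference of 0.51 ± 0.09 (SE, limma adjusted p = 0.129). Its C57B6 and mixed BL ranges come within 0.1 of each other, and late wild-type was the highest array in each background. Ndufs1, the largest core subunit, which carries iron-sulfur clusters, ran from -0.19 to -0.0074 in C57B6 and from 0.0074 to 0.41 in mixed BL, a difference of 0.35 ± 0.09 (SE, limma adjusted p = 0.217). Ndufa13, also known as a cell death regulator, had a difference of 0.35 ± 0.06 (SE, limma adjusted p = 0.140). All 6 core subunits had a positive difference, with a median of 0.17, as did 24 of the 29 accessory subunits, with a median of 0.15. Ndufa3, another accessory subunit, had a lower value in mixed BL in each matched pair, at -0.19 ± 0.08 (SE, limma adjusted p = 0.363).

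Taken by prefix, complex II, the succinate dehydrogenase that also serves the TCA cycle, had the highest median background difference of the 5 complexes. It was 0.19, with 7 of 8 genes positive. These 8 include the assembly factors Sdhaf1, Sdhaf2, Sdhaf3 and Sdhaf4, and the subunits Sdha, Sdhb, Sdhc and Sdhd had -0.05, 0.23, 0.46 and 0.21. Complex IV likewise includes the restricted paralogs Cox4i2, Cox6a2, Cox6b2, Cox7a1, Cox8b and Cox8c. The ranking of the complexes was not repeated without such genes. Within Smurf2-/- cells the complex II median was 0.02 (4 of 8 positive), below 0.10 for both complex I and complex IV. Between the late Smurf2-/- arrays it was -0.14. Sdhc, which anchors the enzyme in the membrane, stood at -0.18 and -0.47 in C57B6 wild-type (early and late) and at -0.26 and -0.10 in C57B6 Smurf2-/-. In mixed BL the same order gave 0.10, 0.22, 0.11 and 0.41, all above the C57B6 arrays. The difference was 0.46 ± 0.10 (SE, limma adjusted p = 0.185). For Sdhaf2, the factor that helps attach FAD to the catalytic subunit, it was 0.30 ± 0.06 (SE, limma adjusted p = 0.163). Complexes I, III, IV and V had medians of 0.14, 0.12, 0.11 and 0.03, with 36 of 43, 7 of 8, 13 of 16 and 11 of 17 genes positive.

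In complex IV the broadly expressed subunits Cox4i1, Cox6a1, Cox7b and Cox8a were all higher in every mixed BL array than in any C57B6 array. The nearest C57B6 and mixed BL values were -0.027 and 0.027 for Cox8a and -0.021 and 0.021 for Cox7b, a mean of 2 clusters. In the Cox7b cluster below the coarse brightness class the backgrounds overlapped, with early wild-type at 0.015 in C57B6 and -0.015 in mixed BL. Cox4i1, a regulatory subunit, stood at -0.25 and -0.30 in C57B6 wild-type and -0.071 and -0.082 in C57B6 Smurf2-/-, and at 0.071, 0.16, 0.11 and 0.46 in mixed BL in the same order. Its difference was 0.37 ± 0.08 (SE, limma adjusted p = 0.180), beside 0.28 ± 0.07 for Cox8a (adjusted p = 0.201) and 0.30 ± 0.10 for Cox7b (adjusted p = 0.284), both small membrane subunits. Cox7a2 had 0.22 ± 0.09 and Cox6b1 0.0058 ± 0.12, with overlap between the backgrounds. Uqcrh, the hinge protein of complex III, was the other member besides Ndufs5 that was lower in all mixed BL arrays, by -0.23 ± 0.06 (SE, limma adjusted p = 0.211). Its nearest values were 0.012 in late Smurf2-/- C57B6 and -0.012 in early wild-type mixed BL. In complex V the smallest background p belonged to Atp5g1, which encodes a form of the c-ring subunit, at 0.31 ± 0.09 (SE, limma adjusted p = 0.233).

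**Figure D2:**
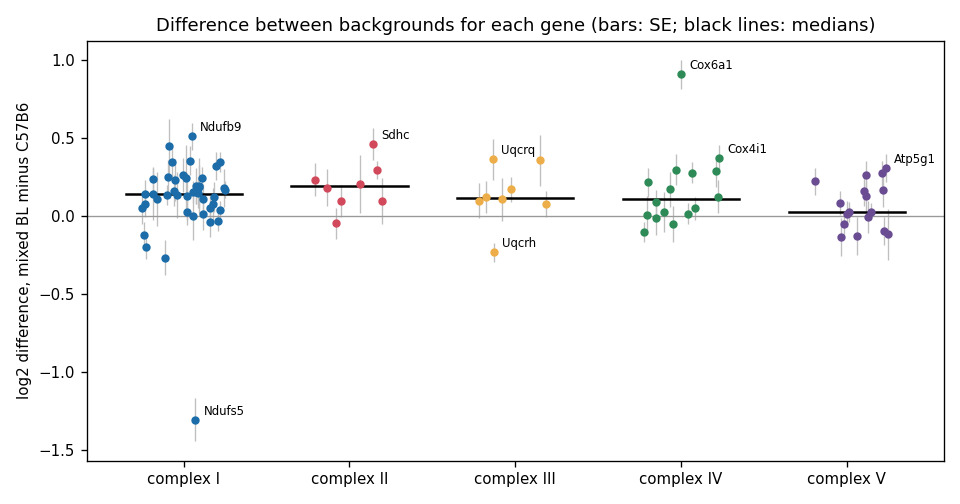
Fitted mixed BL minus C57B6 log2 difference of each of the 92 members (points, grey bars for the SE), grouped by complex, with a black line at the median of the complex. Most points lie above 0, and Cox6a1 at 0.91 and Ndufs5 at -1.31 lie farthest from it.

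The shift differed in size between the pairs of arrays, each of which sets 1 array against 1 and has no replicate check. Between the early Smurf2-/- arrays 75 of 92 members were higher in mixed BL (median 0.15), and between the early wild-type arrays 64 were (median 0.11). Between the late wild-type arrays there were 71 (median 0.28), and between the late Smurf2-/- arrays 45 (median -0.01). Over all genes the matching shares were 57.1%, 56.3%, 58.0% and 37.0%. Without the late wild-type C57B6 array the median member difference for background was 0.083 in place of 0.13, with 70 of 92 positive. Genetic background, the number of pooled embryos and the passage numbers differed together between these groups and cannot be told apart.

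The arrays themselves show where the members were low. The median member stood at -0.10 and -0.15 in wild-type C57B6 at early and late passage, at -0.08 and 0.09 in Smurf2-/- C57B6, at 0.02 and 0.11 in wild-type mixed BL and at 0.05 and 0.08 in Smurf2-/- mixed BL. Late Smurf2-/- C57B6 thus lay with the mixed BL arrays, apart from the other 3 C57B6 arrays. Of the 92 members, 38 had their lowest value in late wild-type C57B6, and the next array was the lowest for 16. The highest value fell in late wild-type mixed BL for 28 members and in late Smurf2-/- C57B6 for 22. Lowest and highest arrays were not counted over all genes. Values above 0 were held by 64 of 92 members in late Smurf2-/- C57B6 and by 24 in late wild-type C57B6. Over all 17501 genes the matching numbers were 10767 and 7782, and late Smurf2-/- C57B6 also had the highest array median, 0.046. Complex II had the widest range of array medians, from -0.30 in late wild-type C57B6 to 0.19 in late wild-type mixed BL.

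**Figure D3:**
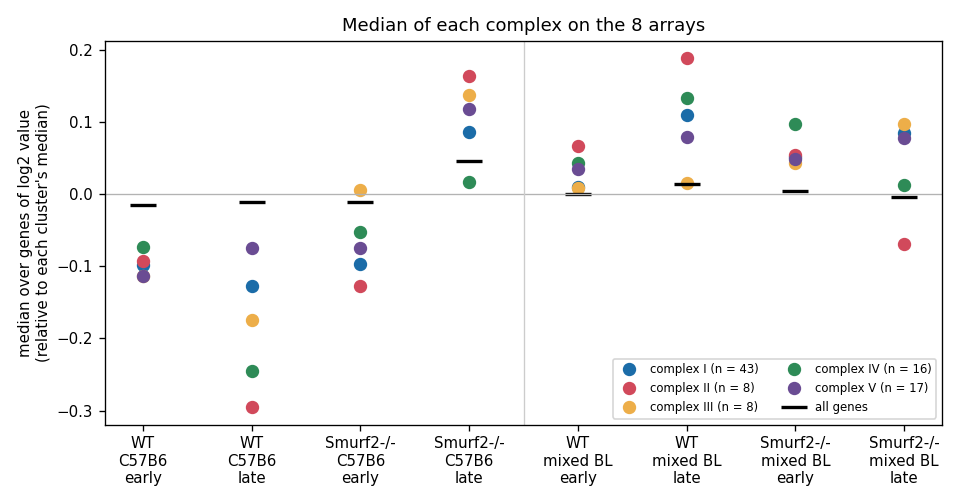
Median log2 value over the genes of each complex (coloured points) and over all genes (black dashes) on each of the 8 arrays, relative to each cluster's median. In late wild-type C57B6 all 5 complexes lie below 0, from -0.30 for complex II to -0.08 for complex V, and in late Smurf2-/- C57B6 all 5 lie above 0.

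The comparison of genotypes asks how fibroblasts without Smurf2 differ from wild-type. No member was called by limma, beside 0.0286% of all genes (5). The smallest member adjusted p was 0.651. At an unadjusted p under 0.05 there were 7 members, 6 positive and 1 negative, beside 7.55% of all genes (3.14% positive and 4.42% negative). In all, 69 of 92 members had a positive Smurf2-/- minus wild-type difference, against 55.5% of all genes, with a median of 0.07 against 0.015. In 4 of 4 matched pairs 18 members were higher in Smurf2-/-, where 11.0% of all genes were, and 4 were lower, where 9.35% were. Sex-linked genes moved with the genotypes: Xist, the RNA that silences an X chromosome, differed by -4.36 ± 0.33 (SE) and the Y-linked Uty by 2.35 ± 0.13 (SE), with limma adjusted p of 0.0484 and 0.0367 and the same sign in all 4 pairs. Embryo sex is not in the labels, and genotype and sex cannot be told apart here. Of the members only Cox7b, Ndufa1 and Ndufb11 are X-linked, and among the other 89 the count was 68 and the median 0.07. All 4 neural markers, none of them in the brighter class, also had a positive genotype difference (median 0.35), with array medians from -0.47 to 0.17 in wild-type and from -0.019 to 0.72 in Smurf2-/-; their part in the member values was not tested.

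Ndufs4, an accessory subunit known from mitochondrial disease of complex I, was the only member whose genotypes did not overlap, and it was higher in Smurf2-/-; of all genes 1.14% were apart in this direction and 1.02% in the other. Wild-type cells stood at -0.062 and -0.44 in C57B6 (early and late) and at -0.10 and -0.058 in mixed BL. Smurf2-/- cells stood at 0.058 and 0.21 in C57B6 and at 0.26 and 0.17 in mixed BL. The difference was 0.34 ± 0.10 (SE), or 1.27-fold, with a limma adjusted p of 0.651, so it did not pass.

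Further members had a positive difference in 4 of 4 pairs. Ndufs6, an accessory subunit of the peripheral arm, stood at -0.044 and -0.35 in wild-type C57B6 and -0.018 and 0.46 in Smurf2-/- C57B6, and at -0.15 and 0.018 in wild-type mixed BL and 0.048 and 0.64 in Smurf2-/- mixed BL. The 2 late Smurf2-/- arrays held its highest values, and the early arrays were near each other. Its difference was 0.41 ± 0.15 (SE), or 1.33-fold. For Ndufaf6, an assembly factor of complex I, it was 0.36 ± 0.17 (SE), with 1.03 in the late mixed BL pair and 0.34 in the late C57B6 pair against 0.01 and 0.07 in the early pairs. Cox5a, a subunit of complex IV, had 0.34 ± 0.11, Sdhb, the iron-sulfur subunit of complex II, 0.32 ± 0.11, and Atp5d, the delta subunit of the ATP synthase, 0.26 ± 0.10 (SE, all limma adjusted p between 0.651 and 0.652). Below 0 in all 4 pairs were Sdhaf2 at -0.23 ± 0.06, Atp5l, a membrane subunit of the ATP synthase, at -0.16 ± 0.08, Uqcrh at -0.13 ± 0.06 and Ndufv2, a core subunit of complex I, at -0.10 ± 0.06 (SE, adjusted p between 0.651 and 0.674). Without the late Smurf2-/- C57B6 array Cox5a had 0.22 and Atp5d 0.17. With late wild-type mixed BL left out Ndufaf6 had 0.19 and Atp5l -0.10, and without the late Smurf2-/- mixed BL array Ndufaf6 had 0.20.

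The genotype difference lay mostly in a single pair of arrays, late C57B6. There 70 of 92 members were higher in Smurf2-/-, with a median of 0.26, against 62.8% of all genes with a median of 0.079. The early C57B6 pair gave 53 members and a median of 0.03, the early mixed BL pair 60 and 0.04, and the late mixed BL pair 40 and -0.03, where all genes had 50.1%, 52.0% and 42.7%. Marker lists also differed between the 2 late C57B6 arrays: their medians in Smurf2-/- and wild-type were -0.47 and 0.036 for fibroblast, 0.36 and -0.27 for neural, 0.18 and 0.047 for epithelium, 0.13 and 0.017 for skeletal muscle, 0.05 and -0.12 for macrophage and leukocyte, 0.098 and -0.052 for heart muscle, 0.06 and -0.044 for brown fat and 0.028 and -0.017 for endothelium markers, and their part in the member values was not tested. In the late C57B6 pair the median was 0.16 for complex I (30 of 43 higher), 0.48 for complex II (7 of 8), 0.32 for complex III (6 of 8), 0.22 for complex IV (14 of 16) and 0.26 for complex V (13 of 17). Ndufa5, Ndufs6 and Ndufa9 of complex I differed there by 0.87, 0.81 and 0.79, Cox5a by 0.73 and Uqcrc1, a core protein of complex III, by 0.69. Ndufa5 had -0.44 in the late mixed BL pair, so that it did not hold across backgrounds. Without the late wild-type C57B6 array the median member difference for genotype was 0.012, with 51 of 92 positive, and without the late Smurf2-/- C57B6 array it was 0.032, with 55 of 92.

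The 4 subunits of complex II show the pattern gene by gene. Sdha, which carries the FAD, differed between the genotypes by -0.05 and 0.40 in the early and late C57B6 pairs and by 0.04 and -0.12 in the mixed BL pairs. Sdhb differed by 0.30, 0.66, 0.03 and 0.27 in the same order. Of these 4 genes it alone was positive in each pair. Sdhc differed by -0.08, 0.36, 0.01 and 0.19 and Sdhd, the other membrane anchor, by 0.02, 0.64, -0.02 and -0.33. All 4 were thus highest in the late C57B6 pair.

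**Figure D4:**
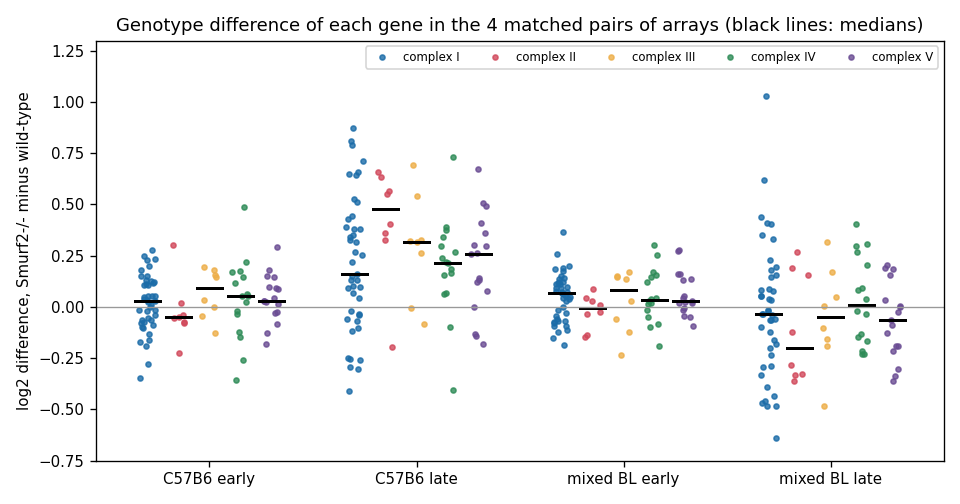
Smurf2-/- minus wild-type log2 difference of each member (points, coloured by complex) in each of the 4 matched pairs of arrays, with a black line at the median of each complex. The late C57B6 pair has the highest medians, from 0.16 in complex I to 0.48 in complex II, and the late mixed BL pair has a median of -0.03 over all members.

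Long culture was compared as late minus early passage. No member was called by limma, beside 0.0171% of all genes (3). At an unadjusted p under 0.05 there were 16 members, 12 positive and 4 negative, a share of members near the 17.3% of all genes (6.95% positive and 10.3% negative). Positive differences were found in 63 of 92 members, against 57.5% of all genes, with a median of 0.05 against 0.028. All 4 matched pairs were higher late for 15 members (16.3%), a share near the 15.1% of all genes. They were all lower late for 5 members, where 11.9% of all genes were. Passage classes did not overlap for 4 members that were higher late, where 5.44% of all genes were, and for 2 that were lower, where 4.59% were. Over the same arrays all 8 fibroblast markers had a negative passage difference, with a median of -0.47, and their array medians ran from -0.47 to 0.04 at late and from 0.01 to 0.08 at early passage. Of the other lists, 4 of 4 epithelium markers had a positive passage difference (median 0.14, all of them in 4 of 4 pairs, 2 without overlap), as did 5 of 6 skeletal muscle (0.08, 4 of them in 4 of 4 pairs), 1 of 5 macrophage and leukocyte (-0.10), 2 of 4 endothelium (-0.02), 2 of 4 heart muscle (-0.01), 1 of 4 neural (-0.17) and 3 of 4 brown fat markers (0.06). No marker was called, and their part in the member values was not tested. In such bulk RNA fewer cells of a type and less RNA per cell cannot be told apart.

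Members of the ATP synthase had the smallest p for passage. Atp5j2, the f subunit of its membrane sector, stood at -0.21 and -0.18 at early passage in wild-type and Smurf2-/- C57B6 and at -0.22 and -0.087 in mixed BL. At late passage the same order gave 0.087, 0.22, 0.15 and 0.18. Late arrays lay above early arrays throughout, and the spread within each class was below the difference of their means. The means were 0.16 ± 0.06 and -0.17 ± 0.06 (SD, n = 4 each), a difference of 0.33 ± 0.05 (SE), or 1.26-fold, with a limma adjusted p of 0.113.

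The c-ring subunit is encoded by Atp5g1, Atp5g2 and Atp5g3, whose mature proteins are the same and whose import sequences differ. Atp5g2 had the largest passage difference of the members. It stood at -0.26 and -0.11 at early passage in wild-type and Smurf2-/- C57B6 and at -0.60 and -0.33 in mixed BL, and at 0.21, 0.33, 0.45 and 0.11 at late passage. No early array reached a late one. The difference was 0.60 ± 0.12 (SE), or 1.51-fold, with a limma adjusted p of 0.126, and its 3 clusters stayed within 0.04 of each other on every array. Atp5g1 had 0.20 ± 0.09 (adjusted p = 0.311): its C57B6 arrays stood at -0.31, -0.31 and -0.27 apart from 0.097 in late Smurf2-/-, and its mixed BL arrays ran from -0.068 to 0.25. Atp5g3 had 0.02 ± 0.12, with values from -0.29 in late Smurf2-/- mixed BL to 0.22 in late Smurf2-/- C57B6. The differences between the 3 genes' passage responses were not tested.

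Not every ATP synthase gene ran upward. Atp5md, a small membrane subunit that helps hold the enzyme in dimers, stood between 0.074 and 0.22 at early and between -0.26 and -0.074 at late passage, a difference of -0.30 ± 0.07 (SE, limma adjusted p = 0.137). Uqcrb, long called the ubiquinone-binding protein of complex III, stood between 0.043 and 0.21 at early and between -0.37 and -0.039 at late passage, a difference of -0.27 ± 0.08 (SE, limma adjusted p = 0.213). Sdhaf2 had -0.23 ± 0.06 (SE, adjusted p = 0.169) and was lower late in each pair. In complex I, Ndufa6, an accessory subunit, had 0.35 ± 0.12 (adjusted p = 0.246) and Ndufv2, a core subunit of the NADH-oxidising module, 0.21 ± 0.06 (adjusted p = 0.175), both positive in 4 of 4 pairs. Ndufa6 had 0.22 without the late Smurf2-/- mixed BL array, where it stood at 0.64. Complexes I to V had median passage differences of 0.08, 0.003, 0.04, 0.02 and 0.04, with 33 of 43, 4 of 8, 4 of 8, 10 of 16 and 12 of 17 genes positive.

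**Figure D5:**
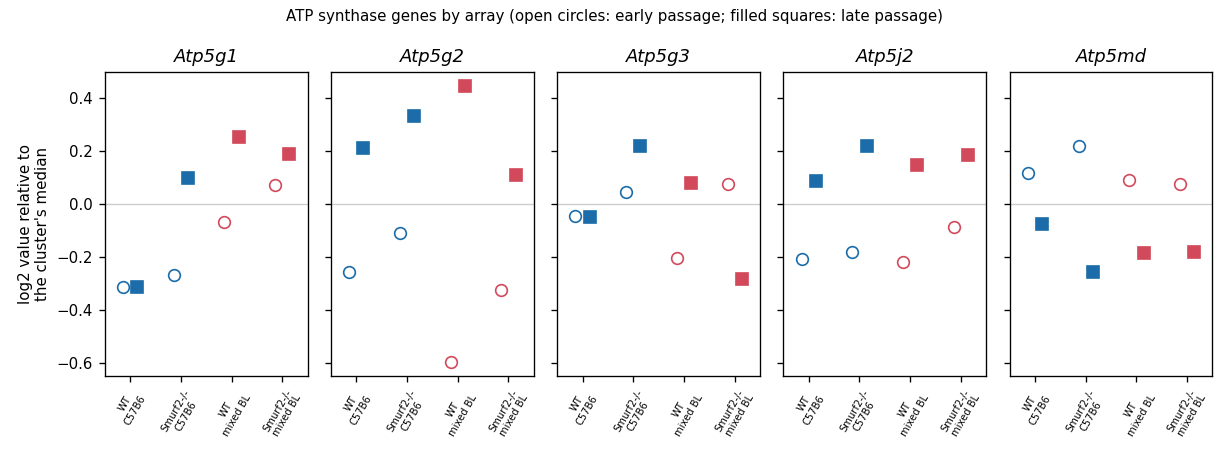
Log2 value relative to the cluster's median over the 8 arrays (vertical axis) of Atp5g1, Atp5g2, Atp5g3, Atp5j2 and Atp5md, a panel each, by genotype and background (horizontal axis), with 1 symbol per array: open circles for early and filled squares for late passage, blue for C57B6 and red for mixed BL. For Atp5g2 and Atp5j2 all late arrays lie above all early arrays, for Atp5md all lie below, and for Atp5g1 and Atp5g3 they overlap.

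The passage difference varied between the 4 pairs. In Smurf2-/- C57B6 74 of 92 members were higher late, with a median of 0.16, whereas the number was 33 in wild-type C57B6 (median -0.05), 47 in Smurf2-/- mixed BL (0.007) and 53 in wild-type mixed BL (0.06). Over all genes the shares were 61.7%, 50.3%, 47.3% and 53.6%. Without the late Smurf2-/- C57B6 array the median member difference for passage was -0.0054, of the opposite sign, with 45 of 92 positive. Without the early Smurf2-/- C57B6 or the late wild-type mixed BL array it was 0.033 and 0.012, and without the late wild-type C57B6 or the late Smurf2-/- mixed BL array it was 0.099 and 0.082. Complex II was the widest apart, at 0.20 in Smurf2-/- C57B6 (7 of 8 higher) and -0.23 in wild-type C57B6 (1 of 8).

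Whether the genotype, passage and background differences depended on each other was tested with interaction terms. Limma called no member and 0% of all genes for any of the 3 interactions. At an unadjusted p under 0.05 there were 2 members for genotype by passage, 3 for genotype by background and 3 for passage by background, beside 5.35%, 3.18% and 9.19% of all genes. The genotype by background term was negative for all 8 complex II and all 8 complex III genes, with medians of -0.23 and -0.22. It was negative for 66 of 92 members (median -0.12). Most genes on the array were negative too, 10562 of 17501 (median -0.051), with 39.6% positive. A negative term means that the Smurf2-/- minus wild-type difference was lower in mixed BL than in C57B6. For a gene with a negative difference, such as Sdhaf2, lower means farther below wild-type. Ndufs6 had the smallest p for genotype by passage, at 0.60 ± 0.19 (SE, limma adjusted p = 0.844), followed by Ndufaf6 at 0.65 ± 0.25 (adjusted p = 0.913), which had 0.41 without the late wild-type and 0.42 without the late Smurf2-/- mixed BL array. Ndufa1, an X-linked accessory subunit, had -0.56 ± 0.20 and Cox6c, of complex IV, 0.44 ± 0.16 for genotype by background (both adjusted p = 0.939). Atp5b, the catalytic beta subunit of the ATP synthase, had -0.43 ± 0.13 (adjusted p = 0.428) and Uqcrq, of complex III, 0.51 ± 0.17 (adjusted p = 0.477) for passage by background.

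The restricted paralogs differ from their broadly expressed counterparts in where they are known to be used. Cox6a2, Cox7a1 and Cox8b belong to heart and skeletal muscle, Cox6b2 and Cox8c to testis, and Cox4i2 and Ndufa4l2 are known from lung and from low oxygen. None was in the brighter class, and most varied little: the SD over the 8 arrays was 0.06 for Cox4i2, 0.08 for Cox8b, 0.12 for Cox7a1 and Ndufa4l2 and 0.15 for Cox8c. Cox6a2 and Cox6b2 varied more, at 0.22 and 0.28. For passage Cox6b2 had -0.43 ± 0.13 (SE, limma adjusted p = 0.206, higher late in 1 of 4 pairs) and Cox6a2 0.28 ± 0.11 (adjusted p = 0.269). For background, where Cox6a1 had 0.91, Cox6a2 had 0.12 ± 0.11, and where Cox4i1 had 0.37, Cox4i2 had 0.02 ± 0.07. Cox8b had -0.10 ± 0.07 beside 0.28 for Cox8a, and Ndufa4l2 -0.12 ± 0.09 beside 0.14 ± 0.17 for Ndufa4, which is now placed with complex IV. Differences between paralogs were not tested.

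Agreement between clusters of a gene could be checked for 18 members. The clusters of Atp5g1, Atp5g2, Cox5b, Ndufab1, Ndufc1 and Ndufs3 stayed within 0.1 of each other on every array. The largest gaps were 0.10 for Cox7b, 0.18 for Uqcrb and 0.21 for Atp5md. The clusters of Cox7a2l and Sdhaf4 did not agree, with largest gaps of 0.48 and 0.58, so that their means describe neither cluster. The 6 clusters of Atp5l and the 2 of Cox6c were up to 0.42 and 0.30 apart, and the differences given for these genes are means over them. The clusters shared by Ndufb4 and Ndufb4b, which cannot be assigned to either gene and are no members, had background differences of 0.53 and 0.54. Those shared by Cox7c and Gm12338 had between 0.14 and 0.20.

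Other genes of the organelle were taken as lists for comparison. In the mitochondrial ribosome, which makes the subunits encoded in mitochondrial DNA, 66 of 77 genes had a positive background difference, with a median of 0.17, and 1 was called: Mrpl20 was higher in mixed BL by 1.35 ± 0.09 (SE, limma adjusted p = 0.0287). Its genotype and passage medians were 0.11 (65 of 77 positive) and 0.14 (63 of 77), with no gene called. Protein import genes (Timm and Tomm) had 21, 20 and 17 of 24 positive for background, genotype and passage, with medians of 0.15, 0.10 and 0.09. The 32 assembly factors outside the rule, of 35 listed, had 25, 20 and 15 positive, with medians of 0.15, 0.05 and -0.02. Of 14 genes for electron and adenine nucleotide carriers, 11, 10 and 10 were positive, with medians of 0.13, 0.12 and 0.04. No gene of these 3 lists was called.

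The TCA cycle genes, all 15 in the brighter class, had a positive difference in 14 of 15 for background (median 0.28) and for genotype (median 0.11) and in 6 of 15 for passage (median -0.10), with no call. Of 17 regulators of mitochondrial biogenesis, 9 were positive for background (median 0.01), 11 for genotype (0.04) and 10 for passage (0.06), also with no call. Ppargc1b, a coactivator of mitochondrial genes, had a genotype difference of 0.23 ± 0.08, positive in 4 of 4 pairs, while its paralog Ppargc1a had -0.22 ± 0.14. Nrf1 itself, the factor whose letters are marked in the sequences, had 0.13 ± 0.10 for genotype and 0.06 ± 0.10 for passage (SE, limma adjusted p = 0.735 and 0.778). Tfam, which packages and transcribes mitochondrial DNA, had 0.42 ± 0.07 for background and 0.26 ± 0.07 for passage (SE), positive in 4 of 4 pairs for both and not called.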

How the data were processed

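Total RNA of 8 samples was measured on Affymetrix arrays. The authors deposited log2 values, centred cluster by cluster on the median of the 8 arrays (largest row median 5e-07). How the arrays were normalised and the probes summarised is not stated in the sources used here. Per the submitters' processing notes the builds were mm8 and mm9, with no step attached. Although the series text speaks of an exon array, the identifiers are those of a gene-level array, whose annotation gave the names: of 24169 clusters 19134 had 1 symbol, 1230 several and 3805 none.

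Clusters of 17501 genes were averaged per gene and fitted over all 8 arrays with limma 3.58.1 (R 4.3.3) on genotype, background and passage class, with 4 residual degrees of freedom, or 3 with an interaction, added singly. P-values were adjusted by Benjamini-Hochberg over all genes, at 0.05. The number of arrays limits the precision. No dim gene was left out; the class of log2 8 or above was read from the rounding step that single-precision storage left (tolerance 1.5e-07). The fit was tested on simulated data. The title number is the passage class, so the additive model holds that pairing.

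Members, gene lists and alternatives were chosen with earlier results of these data known. Named were the members with the 3 largest differences per direction and factor and the same sign in 4 of 4 pairs, the 2 smallest p per interaction, the smallest p per complex and factor, the restricted paralogs with their counterparts, the Sdh subunits and the c-ring genes. Ndufs1, Ndufa13, Ndufa5, Ndufa9, Uqcrc1, Cox7a2l, Sdhaf4, the Ndufv2 genotype value and single genes of the other lists were picked after their values were seen. The alternatives were array median centring, quantile normalisation, bright genes alone, single clusters, an eBayes trend, robust eBayes, no replicate block, all interactions, members without assembly factors and restricted paralogs, names as annotated, and each array left out.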

Additional observations from a re-analysis of the deposited data

Results flagged for a closer look

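Among 282 groups of 4 arrays, 17 (6.03%) had 1 array apart from the other 3 by a gap that, over the group's range, passed Dixon's critical value for groups of 4. Chance alone gives about 1 in 20 such groups, so the number is near what it gives.

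Late Smurf2-/- C57B6 stood above the other 3 C57B6 arrays in the medians of complex I (0.0857, others from -0.127 to -0.0962) and complex V (0.118, others from -0.113 to -0.075). It did so in Atp5g1 (0.0965, others from -0.31 to -0.27), Ndufa4 (0.468, others from -0.24 to -0.13), Ndufaf6 (0.289, others from -0.052 to -0.041) and Cox8c (0.386, others from -0.072 to -0.0058), and Cox8c was also apart among the Smurf2-/- arrays. Late wild-type C57B6 lay below the other 3 late arrays in the median of all members (-0.147, others from 0.081 to 0.11) and of complex I (-0.127, others from 0.085 to 0.11), and below the other wild-type arrays in Ndufs4 (-0.436, others from -0.10 to -0.058).

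Late Smurf2-/- mixed BL stood above the other Smurf2-/- arrays in Ndufa6 (0.642, others from -0.083 to -0.00012) and above the other mixed BL arrays in Sdhb (0.284, others from -0.015 to 0.015). Early Smurf2-/- mixed BL stood above both the other Smurf2-/- and the other early arrays in Cox7a1 (0.311). Early wild-type mixed BL lay below the other early arrays in Cox6b1 (-0.246, others from -0.0083 to 0.011). Early wild-type C57B6 stood above the other wild-type arrays in Cox8b (0.185) and Ndufa4l2 (0.293).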

How the results depend on the processing

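The number of members called stayed at 0 in all 6 tests except for background under 3 settings: 2 were called with every cluster tested on its own (Ndufs5 and Cox6a1, lowest limma adjusted p 0.0356), 2 with a trend (the same genes, both 0.0389) and 1 with no replicate block (Ndufs5, 0.0396). For genotype the count without the replicate block stayed at 0. Of 131 alternative values of the call counts and median differences, the other 128 counted as kept. They kept their side of the threshold or moved by less than the spread between pairs. That spread is wide, with genotype medians from -0.03 to 0.26 in the 4 pairs. A median could thus vanish or change sign and still count as kept. With 1 array left out the median member difference ran from 0.012 to 0.099 for genotype, from -0.0054 to 0.099 for passage and from 0.083 to 0.18 for background. Quantile normalisation gave 0.055, 0.078 and 0.14, and centring each array on its median 0.056, 0.033 and 0.13, with 64, 56 and 74 members positive. Over the 50 bright members they were 0.074, 0.038 and 0.16, beside -0.014, -0.09 and 0.039 over all bright genes. Of 417 alternative values of 30 named differences, 0 changed sign and 3 passed the threshold. Single clusters were left out of these values, since they give no gene value. The 30 differences were chosen in these same data by size and sign or by p, so the count of sign changes says little about them. Dim members have an unknown signal over background.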
